A study of Homo sapiens with 6 samples.

Results

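The genes described here control the sterol response: SREBF1 and SREBF2, which encode the transcription factors SREBP1 and SREBP2, SCAP, INSIG1 and INSIG2, which encode the sterol-sensing escort and its anchors, and MYLIP, which encodes a ubiquitin ligase of lipoprotein receptors. They were taken as all probe sets of the expression table that named 1 of these 6 genes and no other. The rule found 16 of the 54675 probe sets: 2 for SREBF1, 3 for SREBF2, 1 for SCAP, 3 for INSIG1, 1 for INSIG2 and 6 for MYLIP. Their levels were read on 2 groups of 3 Affymetrix arrays of DLD1 cells, a long-established line from a human colorectal adenocarcinoma. Vehicle cultures received DMSO and the others SAH-BCL9B for 12 h, and the labels give 10 µM for each. SAH-BCL9B is a hydrocarbon-stapled peptide modelled on the helix of BCL9 that binds beta-catenin, and no control peptide was among these arrays. The study asked how global gene expression changed when the BCL9/beta-catenin complex was targeted. The labels call the cultures triplicates of 1 cell line, so p-values measure the spread between these cultures alone.

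SREBPs are made as membrane proteins of the endoplasmic reticulum. When sterols are low, SCAP carries them in COPII vesicles to the Golgi, where the site-1 and site-2 proteases free the active factor. When sterols are high, INSIG proteins hold SCAP back. SREBP2 is known mainly for cholesterol synthesis and uptake and SREBP1 for fatty acid synthesis. INSIG1 is itself an SREBP target, which closes a feedback loop, while MYLIP is induced by the oxysterol receptor LXR and marks lipoprotein receptors for degradation.

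Array medians ran from 6.58 to 6.62 on the log2 scale, and each of the 16 probe sets had a vehicle mean above them (lowest 6.92). All 10 measured markers of colorectal epithelium lay above the array medians in both groups. Their mean level was 11.44 to 11.49 in vehicle and 11.45 to 11.48 in SAH-BCL9B arrays, a mean over markers that moved in opposite directions. KRT8, a keratin of simple epithelia, rose by 0.50 and VIL1, the brush border protein villin, changed by -0.86 (limma adjusted p = 0.0305 and 0.00989, the test described next). With the mean of its 4 probe sets VIL1 changed by -0.40. KRT8 and KRT18 were read from probe sets with the suffix _x_at, whose probes may bind other transcripts too. The call on KRT8 was lost without any 1 array except SAH-BCL9B 2 (limma adjusted p up to 0.133) and that on VIL1 when replicate 1 or 2 of vehicle, or 1 or 3 of SAH-BCL9B, was left out (up to 0.0622). Of the 10 markers 6 had an unadjusted p under 0.05, against 3748 of all 19775 genes. The changes of the 4 of these 6 markers that did not pass were 0.28 for KRT18, 0.31 for KRT19, -0.27 for CDX2 and -0.32 for LGALS4. The part of these differences in the results below was not tested. None of the 3 measured leukocyte markers lay above the medians, and 2 of 5 fibroblast, 1 of 3 endothelial and 1 of 3 hepatocyte markers did. None of these 14 markers of other cell types passed limma's test, and 0 had an unadjusted p under 0.05. The ACTB 3' minus 5' difference, a measure of RNA integrity and labelling, was 0.74 in SAH-BCL9B 2 and 1.197 to 1.382 in the other 5 arrays. The same difference for GAPDH did not set this array apart: it was 0.140 there and 0.085 to 0.169 in the other 5.

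SREBF1 fell and INSIG1 rose, while none of the 11 probe sets of the remaining 4 genes passed limma's test. Of these 11, 1 had an unadjusted p under 0.05, as did 15.4% of all probe sets. In limma's test of SAH-BCL9B minus vehicle over 54613 probe sets, with Benjamini-Hochberg adjustment and a threshold of 0.05, 3 of the 16 passed (18.8%), 2 of INSIG1 upward and 1 of SREBF1 downward. Of all probe sets 2.5% passed, 1.12% upward and 1.37% downward. The 3 SAH-BCL9B values lay beyond the 3 vehicle values in 6 of the 16 (37.5%), against 22% of all probe sets. The median log2 change of the 16 was -0.02, with 7 positive and 9 negative, and that of all probe sets was 0.01.

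**Figure D1:**
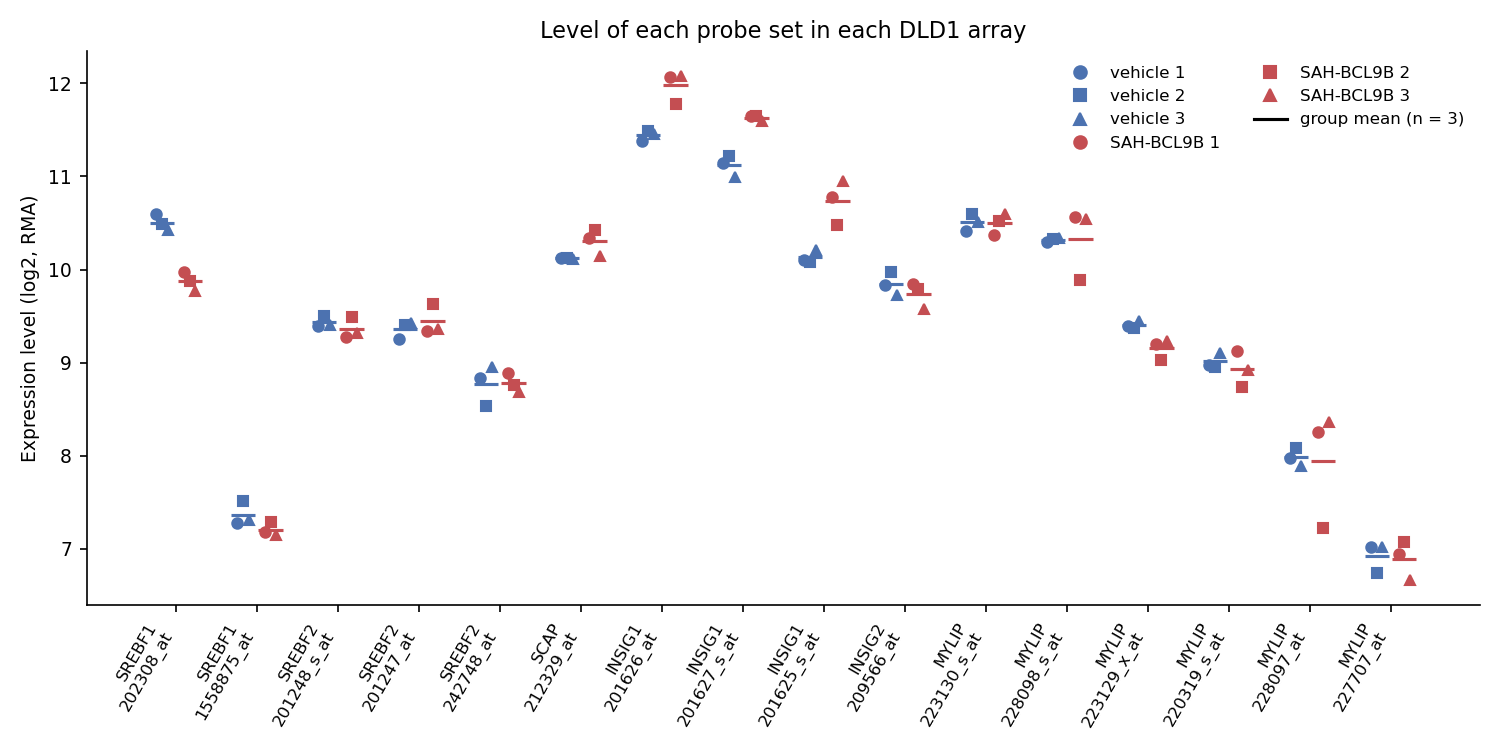
Log2 level (y axis) of each of the 16 probe sets (x axis) in the 3 vehicle and 3 SAH-BCL9B arrays, with a line at each group mean; symbols mark the replicate number. The groups do not overlap in SREBF1 202308_at, SCAP 212329_at, the 3 probe sets of INSIG1 and MYLIP 223129_x_at, and SAH-BCL9B 2 lies lowest in MYLIP 228097_at at 7.23; levels of different probe sets are not comparable.

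SREBF1 was measured by 2 probe sets. With the main one, 202308_at, the vehicle values were 10.59, 10.49 and 10.42 and the SAH-BCL9B values 9.97, 9.88 and 9.77, on the log2 scale. All 3 treated arrays were lower than all 3 vehicle arrays, and the gap between the groups was wider than the range within either. The log2 change was -0.63 ± 0.09 (SE, n = 3), a level 1.55-fold lower (limma adjusted p = 0.0227). The dimmer probe set, 1558875_at, read 7.28, 7.52 and 7.30 in vehicle and 7.18, 7.28 and 7.15 in SAH-BCL9B. Its groups overlapped, its change was -0.16 with a 95% interval of -0.39 to 0.07, and it did not pass (limma adjusted p = 0.523). The mean of both gave -0.40 and passed in a separate fit of gene means, adjusted over 19775 genes (limma adjusted p = 0.0256). SREBP-1a and SREBP-1c, products of alternative first exons of SREBF1, were not told apart here.

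The call on SREBF1 202308_at was lost without any 1 of the 3 vehicle arrays, SAH-BCL9B 1 or SAH-BCL9B 3 (limma adjusted p = 0.0622 to 0.123) and kept without SAH-BCL9B 2 (0.0323). Its change stayed between -0.68 and -0.58 in these 6 fits. Leaving out those 5 arrays also took the calls over all probe sets from 1363 to between 97 and 357.

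SREBF2 was measured by 3 probe sets, none of which passed the test or reached an unadjusted p under 0.05. In 201248_s_at the vehicle values were 9.39, 9.50 and 9.40 and the SAH-BCL9B values 9.28, 9.49 and 9.32. In 201247_at they were 9.25, 9.40 and 9.43 against 9.34, 9.63 and 9.36. In 242748_at they were 8.84, 8.53 and 8.96 against 8.89, 8.76 and 8.68. The groups overlapped in all 3. The changes were -0.07, 0.09 and 0.003, and their 95% intervals together ran from -0.29 to 0.34 (limma adjusted p = 0.819, 0.815 and 0.996).

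Relative to SREBF2, SREBF1 was lower in every treated array than in every vehicle array. To compare both factors within an array, the mean of the SREBF2 probe sets was taken from the mean of the SREBF1 probe sets and set to the vehicle average. This difference was 0.03, 0.12 and -0.14 in the vehicle arrays and -0.34, -0.46 and -0.41 in the SAH-BCL9B arrays. The change of SREBF1 minus that of SREBF2 was -0.40, from changes of -0.40 and 0.006. An exact two-sided permutation test over the 20 arrangements of the arrays gave p = 0.1, the smallest that 3 against 3 arrays allow.

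The promoters of these genes are shown because sterol regulation acts through short elements there, for the 2 genes with a call and for SREBF2, for which no change was detected. Each line gives the 250 bases before the transcription start, 5′ to 3′ on the gene's strand, from RefSeq on GRCh38.p14: SREBF1 at chr17:17836987-17837236 (minus strand), SREBF2 at chr22:41832855-41833104 (plus strand) and INSIG1 at chr7:155297628-155297877 (plus strand). Capitals mark the sterol regulatory element TCACNCCAC, the NF-Y box CCAAT and the E-box CACGTG, each on either strand.
SREBF1: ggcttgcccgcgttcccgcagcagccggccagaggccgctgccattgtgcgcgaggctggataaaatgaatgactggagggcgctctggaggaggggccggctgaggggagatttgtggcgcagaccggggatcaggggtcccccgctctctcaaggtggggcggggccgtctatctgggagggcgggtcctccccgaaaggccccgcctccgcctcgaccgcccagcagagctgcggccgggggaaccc
SREBF2: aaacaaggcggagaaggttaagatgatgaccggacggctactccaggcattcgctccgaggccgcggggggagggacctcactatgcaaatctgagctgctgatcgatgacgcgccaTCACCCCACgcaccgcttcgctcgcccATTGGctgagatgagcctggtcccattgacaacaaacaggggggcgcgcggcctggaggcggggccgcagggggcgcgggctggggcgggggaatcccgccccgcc
INSIG1: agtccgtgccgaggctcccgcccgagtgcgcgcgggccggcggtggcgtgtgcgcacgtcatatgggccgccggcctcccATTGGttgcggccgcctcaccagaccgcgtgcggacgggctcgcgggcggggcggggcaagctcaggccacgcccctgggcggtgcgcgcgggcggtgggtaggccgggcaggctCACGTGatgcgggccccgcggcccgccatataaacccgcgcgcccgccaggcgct
The window of SREBF2 held 1 match to the sterol regulatory element, TCACCCCAC, at 133 to 125 bases before the start, and 1 NF-Y box on the opposite strand at 106 to 102. SREBP is known to bind the first and NF-Y, a frequent partner of SREBP at sterol-regulated promoters, the second. This 1 spelling of the sterol regulatory element was found in 0.883% of all 35116 promoter windows of this length and in none of the other 5 genes. It was also in 0 of 16 known SREBP2 target genes with a window, described below. Its absence therefore does not show that a promoter lacks such an element. INSIG1 held an NF-Y box at 170 to 166 bases and an E-box at 55 to 50 bases before its start, a sequence that SREBP1 and other helix-loop-helix factors can bind. The E-box, searched after the windows were seen, was also in SCAP and in 6.34% of all windows, and the NF-Y box was also in MYLIP and in 32% of all windows. The SREBF1 window held none of these 3 motifs. The Sp factor box GGGCGG was in the windows of all 6 genes and in 42.6% of all windows. These windows cover 1 start for each gene except INSIG2, which has 2, and elements farther away or at other starts were not searched.

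SCAP, the escort that senses cholesterol, was measured by 1 probe set, 212329_at. The vehicle values were 10.12, 10.13 and 10.11 and the SAH-BCL9B values 10.34, 10.43 and 10.15. All treated arrays were higher, SAH-BCL9B 3 by the least. The change of 0.19 ± 0.10 (SE, n = 3) did not pass the test (limma adjusted p = 0.432), and its 95% interval was -0.04 to 0.41.

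INSIG1, the sterol-responsive anchor of SCAP, was higher in all 3 of its probe sets. The vehicle values of 201626_at were 11.38, 11.49 and 11.46 and the SAH-BCL9B values 12.07, 11.78 and 12.08. Those of 201627_s_at were 11.15, 11.22 and 11.00 against 11.65, 11.64 and 11.59. Those of 201625_s_at were 10.10, 10.08 and 10.21 against 10.78, 10.48 and 10.95. No probe set had overlapping groups, and in 201626_at and 201625_s_at the lowest treated array was SAH-BCL9B 2. The log2 changes were 0.53 ± 0.11, 0.51 ± 0.09 and 0.61 ± 0.13 (SE, n = 3), or 1.45-fold, 1.42-fold and 1.53-fold. The first 2 passed the test (limma adjusted p = 0.049 and 0.0348), and the third, with the widest spread, did not (0.0577).

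The INSIG1 calls lay close to the threshold. None of the 3 probe sets passed without any 1 of the 3 vehicle arrays, SAH-BCL9B 1 or SAH-BCL9B 3 (limma adjusted p up to 0.217). Without SAH-BCL9B 2, 201626_at and 201625_s_at passed (0.02 and 0.0182) and 201627_s_at did not (0.0504). The changes stayed between 0.45 and 0.74 in these fits. With arrays centred on their medians 201626_at missed the threshold (0.0562). The mean of the 3 probe sets, 0.55, passed it in the fit of gene means, adjusted over 19775 genes (limma adjusted p = 0.0105). The call on 201627_s_at was lost with the ACTB 3' minus 5' difference as a covariate (limma adjusted p = 0.0509) and with vehicle 3 and SAH-BCL9B 2 both left out (0.0838).

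INSIG2, the second anchor, whose transcription is not known as an SREBP target, did not pass. Its probe set 209566_at read 9.83, 9.97 and 9.73 in vehicle and 9.84, 9.79 and 9.58 in SAH-BCL9B. The groups overlapped, and the change was -0.11 with a 95% interval of -0.36 to 0.15 (limma adjusted p = 0.754).

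Relative to INSIG2, INSIG1 was higher in every treated array than in every vehicle array. INSIG1 minus INSIG2 within an array, set to the vehicle average, was -0.01, -0.10 and 0.11 in vehicle and 0.61, 0.46 and 0.91 in SAH-BCL9B. The difference between the changes was 0.66, from 0.55 for INSIG1 and -0.11 for INSIG2, and the exact two-sided permutation test gave p = 0.1, again the smallest possible. These 2 paralogue pairs were the only such comparisons made, and Benjamini-Hochberg adjustment over both leaves the exact permutation p at 0.1.

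**Figure D2:**
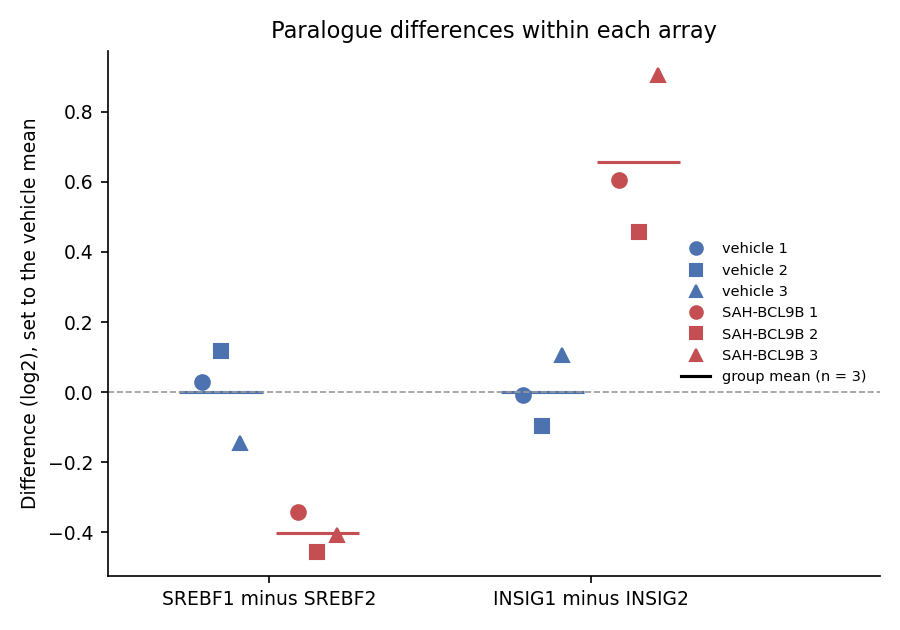
SREBF1 minus SREBF2 and INSIG1 minus INSIG2 within each array (y axis, log2, mean of a gene's probe sets, set to the vehicle mean), 3 vehicle and 3 SAH-BCL9B arrays, with lines at the group means. Treated arrays sit at -0.46 to -0.34 for the first pair and at 0.46 to 0.91 for the second, beyond every vehicle array.

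MYLIP, also called IDOL, was measured by 6 probe sets, and none passed the test. Of the 6, 1 had an unadjusted p under 0.05, against 15.4% of all probe sets. That MYLIP probe set, 223129_x_at, read 9.40, 9.38 and 9.45 in vehicle and 9.20, 9.03 and 9.24 in SAH-BCL9B. All treated arrays were lower, the change was -0.25 ± 0.09 (SE, n = 3), and the limma adjusted p was 0.226. The suffix _x_at marks a probe set whose probes may bind other transcripts too. The main probe set, 223130_s_at, read 10.41, 10.59 and 10.51 against 10.37, 10.53 and 10.60, a change of -0.01 with a 95% interval of -0.23 to 0.22.

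A pair of MYLIP probe sets was set apart by 1 array. In 228097_at the vehicle values were 7.98, 8.08 and 7.89 and the SAH-BCL9B values 8.25, 7.23 and 8.36. In 228098_s_at they were 10.29, 10.32 and 10.34 against 10.57, 9.88 and 10.55. In both, SAH-BCL9B 1 and 3 lay above every vehicle array and SAH-BCL9B 2 below every one. SAH-BCL9B 2 is the array with the low ACTB 3' minus 5' difference of 0.74, whose part in these values was not tested. The changes were -0.03 and 0.01 with all arrays, and 0.33 and 0.24 without SAH-BCL9B 2, where neither passed (limma adjusted p = 0.144 and 0.203).

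The other MYLIP probe sets had overlapping groups. In 220319_s_at the values were 8.98, 8.96 and 9.10 in vehicle and 9.13, 8.74 and 8.92 in SAH-BCL9B, a change of -0.09. In 227707_at, the dimmest of the 16, they were 7.02, 6.74 and 7.02 against 6.95, 7.07 and 6.66, a change of -0.03. Of the 6 MYLIP changes, 5 were negative and 1 was positive.

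**Figure D3:**
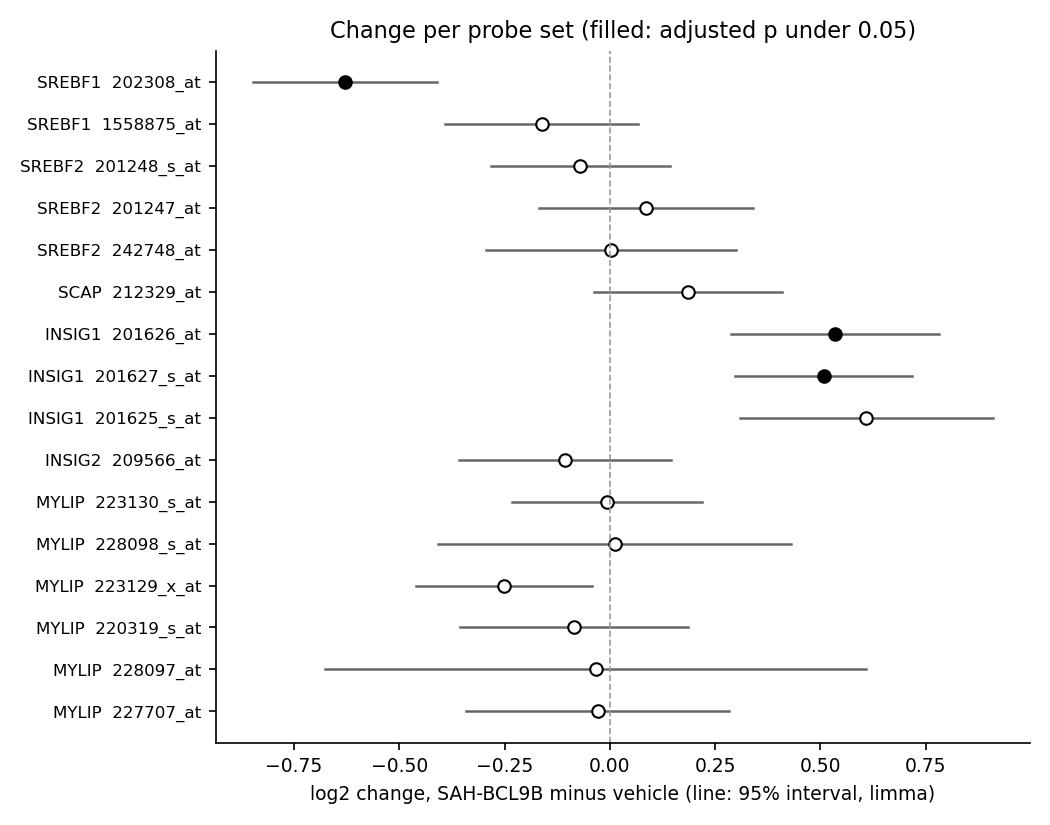
Log2 change, SAH-BCL9B minus vehicle (x axis), of each of the 16 probe sets (y axis), with 95% intervals from limma; filled points passed an adjusted p of 0.05. The intervals of SREBF1 202308_at (-0.85 to -0.41), the 3 INSIG1 probe sets and MYLIP 223129_x_at exclude 0, and 3 points are filled.

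Genes that process the SREBPs or turn over their regulators mostly did not pass. With 1 probe set a gene, 1 of 20 measured genes rose, 1 fell and 18 did not pass, and the median change was 0.15. Over all 19775 genes 3.53% passed, 1.61% upward and 1.92% downward, and the median was 0.02. SEC24C, a cargo adaptor of the COPII coat, rose by 0.56 ± 0.09 (SE, limma adjusted p = 0.0274). RNF145, a ubiquitin ligase that acts on SCAP, fell by 0.47 on the log2 scale (SE 0.09, limma adjusted p = 0.04). The site-1 protease gene MBTPS1 had a change of 0.20 (95% interval -0.01 to 0.42) and the site-2 protease gene MBTPS2 one of -0.19 (-0.39 to 0.01), and neither passed (limma adjusted p = 0.359 and 0.357). Both calls were lost without any 1 array except SAH-BCL9B 2 (limma adjusted p up to 0.141 for SEC24C and 0.192 for RNF145). With vehicle 3 and SAH-BCL9B 2 both left out neither passed (0.0641 for SEC24C and 0.0555 for RNF145). With the mean of its 3 probe sets RNF145 changed by -0.28 and missed the threshold (0.0661, adjusted over 19775 genes).

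The list of cholesterol synthesis and LDL uptake genes, known targets of SREBP2, had the highest median of the 4 lists. Of 18 measured genes 4 rose and none fell (22.2% passed), and the median change was 0.28. Over all 19775 genes 1.61% passed upward and 1.92% downward. Of the 18 changes 15 were positive, against 10893 of all 19775 genes. TMEM97 (-0.22), STARD4 (-0.03) and FDPS (-0.001) had negative changes and did not pass. IDI1, an isomerase of the mevalonate pathway, read 12.19 ± 0.095 in vehicle and 12.81 ± 0.096 in SAH-BCL9B (n = 3, SD), a change of 0.62 (limma adjusted p = 0.0234). HMGCS1, which makes HMG-CoA, rose by 0.50, MSMO1, which removes sterol methyl groups, by 0.47, and the desaturase gene SC5D by 0.41 (limma adjusted p = 0.0317, 0.0305 and 0.0453). All 4 kept their calls without SAH-BCL9B 2 and lost them without any of the other 5 arrays (limma adjusted p up to 0.21). With vehicle 3 and SAH-BCL9B 2 both left out the adjusted p was 0.0515 for IDI1, 0.0683 for HMGCS1, 0.0636 for MSMO1 and 0.0816 for SC5D, and SC5D also missed the threshold with the ACTB 3' minus 5' difference as a covariate (0.0521). The mean of all probe sets gave 0.39 for IDI1, which passed (0.0224), and 0.21 for SC5D, which did not (0.26). Both of these values were adjusted over 19775 genes. Of the 16 list genes with a promoter window, 15 held an NF-Y box (93.8%), against 37% of all genes in the promoter table, and none held the sterol regulatory element as spelled here.

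Fatty acid synthesis genes, the classical targets of SREBP1, showed no calls. Of 13 measured genes 0 passed in limma's test, against 3.53% of all genes, and the median change was 0.02. An unadjusted p under 0.05 was found for 2 of the 13, against 3748 of all 19775 genes. FASN, which encodes fatty acid synthase, had a change of 0.05 (95% interval -0.18 to 0.27), and SCD, which encodes stearoyl-CoA desaturase, one of -0.19 (-0.40 to 0.02). With the mean of its 4 probe sets the change of SCD was -0.004, and that of FASN had either sign across the alternatives. The 2 genes whose intervals exclude 0 were ME1, which encodes malic enzyme, at 0.24 (0.04 to 0.45), and PNPLA3, a lipid droplet protein gene, at -0.37 (-0.70 to -0.04), and neither passed (limma adjusted p = 0.237 and 0.269). ME1 passed in 1 alternative, the fit with a variance trend (0.0429). These 4 were named after their values were seen. SREBF1 itself fell. With 3.53% of all genes passing, 0 calls among 13 genes does not set this list apart from the rest.

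Around LXR and the lipoprotein receptors, 2 of 16 measured genes fell and none passed upward, with a median change of 0.06. Over all genes 1.92% passed downward and 1.61% upward. Another 2 genes of this list lay just above the threshold and passed it upward in 7 alternatives each. VLDLR, which encodes the VLDL receptor, a known substrate of MYLIP, read 9.45 ± 0.07 in vehicle and 8.004 ± 0.20 in SAH-BCL9B (n = 3, SD). It was 2.72-fold lower (limma adjusted p = 0.0039) and passed without each array in turn (up to 0.0463). SMPDL3A, a phosphodiesterase gene induced by LXR, changed by -0.64 ± 0.10 (SE, limma adjusted p = 0.0239), a call kept without SAH-BCL9B 2 and lost without any of the other 5 arrays (up to 0.129). The mean of its 2 probe sets gave -0.39 and passed (0.0217, adjusted over 19775 genes). LRP8, another receptor that MYLIP marks for degradation, read 9.99 ± 0.10 in vehicle and 10.45 ± 0.10 in SAH-BCL9B (n = 3, SD). Its change of 0.45 did not pass (limma adjusted p = 0.0561). The same LRP8 probe set passed in a fit restricted to 1 probe set a gene and adjusted over 19775 rather than 54613 (0.0228). NPC2, which takes part in the export of cholesterol from lysosomes and was named after its value was seen, had a change of 0.41 and did not pass (0.0502). In the restricted fit, adjusted over 19775, NPC2 passed (0.0193). The LXR alpha gene NR1H3 and the sterol exporter gene ABCA1, a classical LXR target, had changes of 0.10 and 0.18 and did not pass (limma adjusted p = 0.759 and 0.644). The level of ABCA1, 5.82 in vehicle, lay below the array medians, and the mean of its 4 probe sets gave -0.14. The vehicle means of ABCG1 (6.46), ABCG5 (4.96), ABCG8 (5.91) and NPC1L1 (6.57) of this list also lay below the medians. So did those of MVD (6.50) among the cholesterol genes and ELOVL5 (6.01) and THRSP (6.40) among the fatty acid genes.

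**Figure D4:**
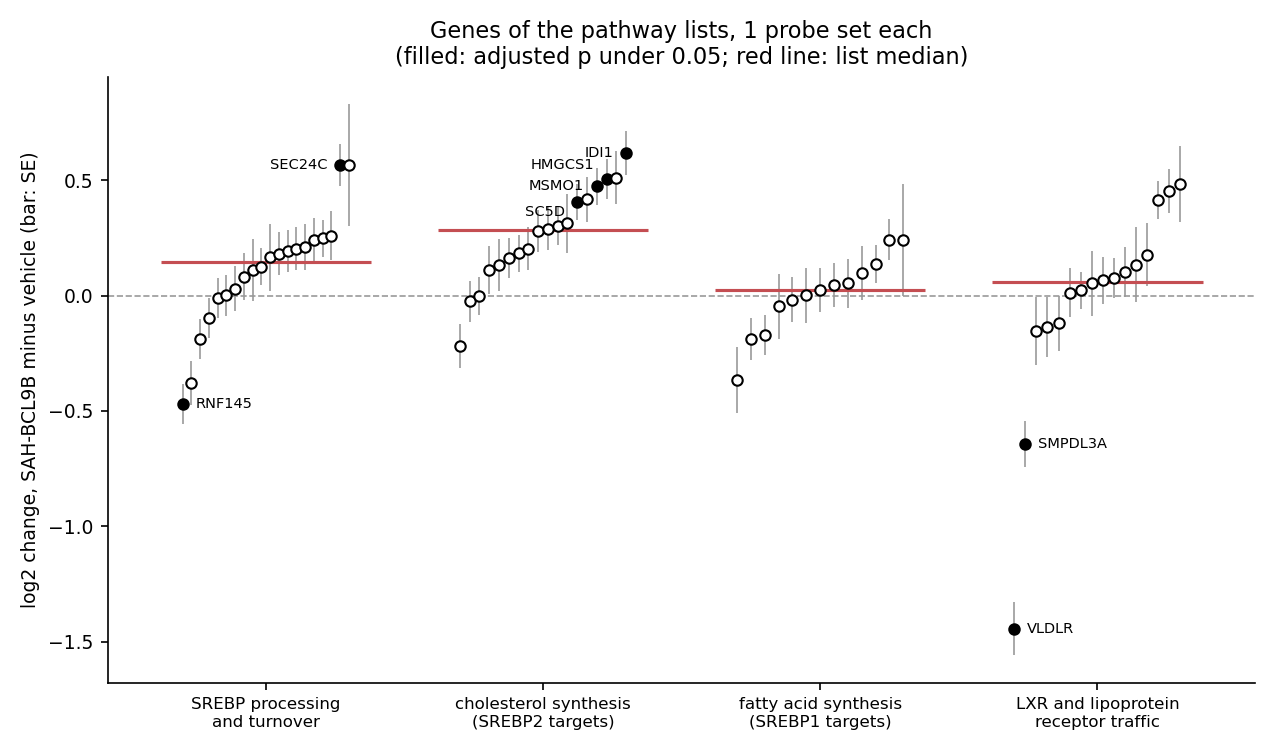
Log2 change, SAH-BCL9B minus vehicle (y axis), with SE bars, of the measured genes of 4 lists (x axis), 1 probe set a gene; filled points passed an adjusted p of 0.05 and red lines are list medians. SEC24C, IDI1, HMGCS1, MSMO1 and SC5D are above 0, RNF145, SMPDL3A and VLDLR below, and no fatty acid synthesis gene is filled.

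The genes whose values over the 6 arrays lay nearest to those of SREBF1 202308_at, among 19774 others set to their vehicle means, were ZBTB2, CDC25C and WARS2, at root mean square distances of 0.051, 0.051 and 0.053 on the log2 scale. Their own changes were -0.68, -0.65 and -0.58 (limma adjusted p = 0.0145, 0.0162 and 0.0418). Nearest to INSIG1 201626_at were the probe set annotated to MIR3682, then TNRC6A and MGAM, at 0.045, 0.057 and 0.058, with changes of 0.52, 0.46 and 0.54. MIR3682 and TNRC6A did not pass and MGAM did (limma adjusted p = 0.0641, 0.0734 and 0.0376). None of these 6 belongs to the 4 lists.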

How the data were processed

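Total RNA of 6 DLD1 cultures was hybridized to Affymetrix Human Genome U133 Plus 2.0 arrays. The authors deposited log2 expression values per probe set, made with RMA in affy per the submitters' processing notes, and the sources used here give no versions or options. RMA equalizes array distributions, which hides a shift common to the whole transcriptome, and it shrinks changes of dim probe sets. Signal over background is unknown.

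Of 54675 probe sets, 62 array controls were left out. Names came from GEO's platform annotation: 41091 probe sets named 1 gene, 1801 several and 11721 none here. Symbols were checked by Entrez ID against RefSeq of GRCh38.p14. Differences were fitted with limma 3.58.1 in R 4.3.3 (lmFit, eBayes, no covariates, no filter), adjusted over all 54613 probe sets. A gene in a list was read from its probe set with the highest mean. Of the 81 list genes 67 were measured; the other 14 are not analysed here. Other software was the R package data.table (version 1.17.8), Python 3.11.15 and matplotlib 3.10.9.

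The members and lists were chosen with earlier results of these data known. The text names all members, the 3 largest rises and falls past the threshold in each list and 10 genes whatever their result, of which 6 were measured. SC5D, FASN, SCD, ME1, PNPLA3, NPC2 and the epithelial markers were added after their values were seen. So were the list genes other than ABCA1 that are named for levels below the array medians. Nearest genes were sought for members with a call. On simulated data with the 54613 probe sets' means and spreads, 5 of 100 changed by 0.5 and 55 of 100 changed by 1 were recovered, with 1 false call and 0 calls with no change. No other probe sets were changed there, while 1363 passed in the real data, so recovery in the real fit may differ. Real changes of 0.5 can be missed. Alternatives covered probe set choice, a filter on low values, scaling, covariates, variance models, array weights, the replicate number as a block and left-out arrays. Fits with 1 probe set a gene or with gene means were adjusted over 19775 genes. The fit with the filter was adjusted over 27306 probe sets.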

Additional observations from a re-analysis of the deposited data

How the results depend on the processing

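The SREBF1 202308_at change and the 3 INSIG1 changes kept their direction in every alternative tried. SREBF1 202308_at ran from -0.68 to -0.58, and the mean of both SREBF1 probe sets gave -0.40. The INSIG1 changes ran from 0.44 to 0.78. Both paralogue differences also kept their direction, from -0.71 to -0.34 and from 0.53 to 0.81. INSIG1 201625_s_at, which missed the threshold, passed it in 7 of its 15 alternatives. Replicate numbers mark no shared day or batch in the labels, and deviations of same-numbered arrays correlated at 0.41, 0.06 and -0.31, so the numbers were not taken as pairs. With the replicate number as a block, calls went from 3 to 0 among the members, from 1363 to 171 over all probe sets, from 2 to 0 for SREBP processing, from 4 to 0 for cholesterol synthesis and from 2 to 1 for LXR and receptors. Leaving out 1 array gave 0 to 3, 97 to 1478, 0 to 3, 0 to 4 and 1 to 2 calls in the same order. With vehicle 3 and SAH-BCL9B 2 left out there were 836 calls over all probe sets, 1 for SREBP processing (SEC24D, upward) and 0 for cholesterol synthesis. Over all probe sets, calls numbered 2725 with the filter on low values, 2982 with array SD as a covariate, 2923 with a robust fit that models a variance trend, and 2738 with array weights. SREBP processing had 1 with the mean of all probe sets and 4 with array SD or the variance trend. Cholesterol synthesis had 7 with the filter or the variance trend, and fatty acid synthesis 1 with the variance trend (ME1). LXR and receptors had 4 with 1 probe set a gene, the mean of all, the filter, the variance trend or array weights, and 5 with array SD. Each of these held VLDLR and SMPDL3A downward and LRP8 and NPC2 upward, with ABCG1 upward as the fifth.

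Values of uncalled probe sets near 0 changed sign. SREBF2 201247_at was -0.026 with the ACTB covariate and from -0.0082 to 0.14 with 1 array left out. SREBF2 242748_at was -0.0066 with a second quantile normalization, -0.0097 with the ACTB covariate and from -0.12 to 0.095 with 1 array left out. MYLIP 223130_s_at was 0.012 with array weights and from -0.056 to 0.057 with 1 array left out. MYLIP 228098_s_at was -0.00073 with the second normalization, -0.016 with array SD and from -0.11 to 0.24 with 1 array left out. MYLIP 220319_s_at was 0.055 with vehicle 3 and SAH-BCL9B 2 left out and from -0.18 to 0.010 with 1 array left out. MYLIP 228097_at was 0.35 with the ACTB covariate, 0.20 with array weights, 0.28 with both arrays left out and from -0.24 to 0.33 with 1 left out. MYLIP 227707_at ran from -0.12 to 0.087 with 1 array left out. FASN was -0.033 with the ACTB covariate, -0.0048 with array weights, -0.031 with both arrays left out and from -0.035 to 0.10 with 1 left out. ABCA1 was -0.14 with the mean of its probe sets. In the whole promoter window, 50 bases past the start included, the sterol regulatory element as spelled here was in 1.13% of all windows and in SREBF2 alone of the 6 genes. The causes were not tested. The number of arrays and unknown signal over background limit the precision.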
